A study of Mus musculus with 18 samples.

Results

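The Reg genes encode small secreted proteins with a C-type lectin fold, named for regenerating islet-derived protein. The 7 members Reg1, Reg2, Reg3a, Reg3b, Reg3d, Reg3g and Reg4 were taken by gene name from a colon RNA sequencing table of 36451 genes, and each name matched 1 row. They were chosen because Reg3 genes fell most from the Control group, so their levels against Control are given as a description and carry no test. The contrast of the AKK and Model groups was not used to choose them and was tested.

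The series concerns colitis and Akkermansia muciniphila (AKK), a gut bacterium that feeds on mucus, and holds 18 colon libraries, 6 in each of 3 groups. Control animals were male C57BL/6J mice, specific pathogen free and 6 weeks old, with no treatment stated. Model mice were given 3% dextran sulfate sodium (DSS), a compound that injures the colon epithelium, for 1 week and then saline by gavage. AKK mice received weekly gavage of the bacterium, 0.1 mL each time, over 6 weeks. No source used here says whether the AKK mice also received DSS, or how old the Model and AKK mice were. Library numbers do not overlap between the groups, so a difference between cohorts cannot be told apart from the treatments. Nothing in the labels ties each library to its own mouse, so the p-values reflect the spread among libraries, part of which may be technical.

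Reg3b and Reg3g are antimicrobial lectins that intestinal epithelial cells release into the lumen, and Reg3g binds peptidoglycan and kills Gram-positive bacteria in the mouse gut. Their transcription in epithelial cells is known to be switched on by IL-22 from innate lymphoid cells and T cells, acting through STAT3, and by sensing of microbes through MyD88. Reg1 and Reg2 are best known from the exocrine pancreas, and they were first found in regenerating islets. Reg4 is made in the mouse colon by deep crypt secretory cells, which lie between the stem cells at the crypt base. Extl3 encodes a membrane protein proposed as a receptor for Reg proteins.

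The deposited table places 6 of the 7 genes in 1 cluster on chromosome 6 of mm10 and Reg4 alone on chromosome 3. In order along chromosome 6, Reg3b (ENSMUSG00000071356) spans 78370657 to 78373466, Reg3d (ENSMUSG00000068341) 78375874 to 78378865 and Reg3a (ENSMUSG00000079516) 78380709 to 78383827. Then come Reg2 (ENSMUSG00000023140) at 78395623 to 78408106, Reg1 (ENSMUSG00000059654) at 78422711 to 78428667 and Reg3g (ENSMUSG00000030017) at 78466269 to 78468872. Reg3d and Reg3g lie on the minus strand and the other 4 on the plus strand. Reg4 (ENSMUSG00000027876) spans 98222156 to 98236748 on the plus strand of chromosome 3. All 7 are annotated as protein-coding.

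The promoter windows below, each 300 bases around the RefSeq start on GRCm38.p6, show the pair with the highest levels in Control, a further Reg3 gene with a low level, and Reg4, whose groups overlapped. RefSeq starts can differ from the gene limits in the deposited table. Each is printed 5′ to 3′ on the strand of its gene, with capitals for a TATA box (TATAAA, gene strand only) and for the core of a STAT site (TTCNNNGAA, either strand), and no matches overlap. The windows are chr6:78370635-78370934 on the plus strand for Reg3b, chr6:78468825-78469124 on the minus strand for Reg3g, chr6:78380459-78380758 on the plus strand for Reg3a and chr3:98221906-98222205 on the plus strand for Reg4.
Reg3b: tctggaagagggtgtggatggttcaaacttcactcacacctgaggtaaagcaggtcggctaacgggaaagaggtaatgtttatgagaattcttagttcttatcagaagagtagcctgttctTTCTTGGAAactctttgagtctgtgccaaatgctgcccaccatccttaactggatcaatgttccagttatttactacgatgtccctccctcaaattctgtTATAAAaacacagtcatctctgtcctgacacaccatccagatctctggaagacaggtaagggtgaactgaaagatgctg
Reg3g: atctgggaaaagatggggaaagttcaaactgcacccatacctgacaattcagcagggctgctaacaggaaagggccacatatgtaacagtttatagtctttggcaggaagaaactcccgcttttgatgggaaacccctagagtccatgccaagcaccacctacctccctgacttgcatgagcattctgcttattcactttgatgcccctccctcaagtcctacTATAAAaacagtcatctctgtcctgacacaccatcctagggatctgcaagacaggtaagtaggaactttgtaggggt
Reg3a: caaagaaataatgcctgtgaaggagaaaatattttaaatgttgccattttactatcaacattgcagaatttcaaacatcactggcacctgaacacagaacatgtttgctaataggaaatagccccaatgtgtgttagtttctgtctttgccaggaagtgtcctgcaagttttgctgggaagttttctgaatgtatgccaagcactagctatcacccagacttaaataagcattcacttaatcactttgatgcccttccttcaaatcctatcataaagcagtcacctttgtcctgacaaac
Reg4: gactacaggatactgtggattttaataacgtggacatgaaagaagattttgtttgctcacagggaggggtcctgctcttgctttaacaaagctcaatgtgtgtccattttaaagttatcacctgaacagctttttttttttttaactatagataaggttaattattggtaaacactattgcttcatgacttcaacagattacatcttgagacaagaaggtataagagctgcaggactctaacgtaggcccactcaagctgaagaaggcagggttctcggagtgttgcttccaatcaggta

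Reg3b had TATAAA at -29 and the STAT core at -129, counted from the start. Reg3g had TATAAA at -27 and no STAT core in this window, and neither motif was in the windows of Reg3a and Reg4. Reg3d had a STAT core at -238, and Reg1 and Reg2 each had TATAAA at -30. In all, 4 of 7 member windows held TATAAA, against 8.32% of the 32851 RefSeq promoters of this length, and 2 of 7 held the STAT core, against 8.3%. The windows of Reg3b and Reg3g were 69.0% identical after alignment. Reg3b shared 55.9% with Reg3d, 49.9% with Reg3a and 50.1% with Reg4, and a RefSeq promoter of median alignment score shared 49.3%. By alignment score, 0 of 32844 promoters of other genes came as near to Reg3b as Reg3g, Reg3a or Reg3d, and 3728 came as near as Reg4. These matches describe letters only and do not show that a factor binds.

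The transcripts are related but can be told apart by reads of 150 bases. Over the 21 pairs of members, the longest protein-coding transcripts of GENCODE vM21 were 45.1% to 69.0% identical, and the longest identical stretch was 9 to 35 bases. Reg3b and Reg3g shared the stretch of 35 bases. No source used here says how reads matching several members were counted. Summing Reg3a, Reg3b, Reg3d and Reg3g to 1 gene gave a log2 change of -6.41 between Model and Control, against -6.58 for Reg3b alone.

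Levels are given as FPKM (sequenced fragments divided by transcript length in kilobases and by the library's mapped fragments), and tests used the deposited counts, whose totals ran from 53873744 to 82589848 per library. Epcam and Vil1, genes of intestinal epithelium, were present in all 18 libraries. Epcam stood at 130 FPKM in Model_1337 and at 425 to 635 in the others. As markers of intestinal epithelium, neither gene tells colon from small intestine, so their presence does not test the colon label. Both were highest in Control_2286, at 635 FPKM for Epcam and 278 for Vil1. Among the 18 libraries, 5 stood apart in markers of other tissues or regions. Model_1337 held squamous epithelial genes at a summed 6715 FPKM, of which Krt5 gave 1059, while the other 17 libraries summed to 39.6 to 139. Control_2286 held Paneth cell genes, which mark the small intestine, at a summed 2939 FPKM against 4.06 to 14.8 elsewhere. Model_1340 and AKK_1309 had the highest Hoxb13, a gene of the most distal hindgut, at 100.3 and 58.9 FPKM. AKK_1310 had reads for 20 of 21 pancreatic acinar genes in the table, against 8 to 15 in the other libraries. In bulk tissue fewer cells of a type and less RNA per cell cannot be told apart.

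Reg3b was among the most abundant transcripts of the Control colon and was far lower in both other groups. In Control it ranged from 551 FPKM in Control_2668 to 14418 in Control_2288, with a median of 7041. In Model it ranged from 0.421 in Model_1337 to 189 in Model_1339, with a median of 38.2. In AKK it ranged from 16.8 in AKK_1309 to 551 in AKK_1303, with a median of 173. All 6 Model libraries lay below all 6 Control libraries. AKK_1303, at 550.9, lay just below Control_2668, at 551.2, so AKK and Control barely failed to overlap. Among all genes of a library, Reg3b ranked 2nd by FPKM in Control_2286, Control_2288 and Control_2289, and its median rank was 7 in Control, 1141 in Model and 262 in AKK.

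Reg3g followed Reg3b at a lower level. Control libraries ranged from 109 FPKM in Control_2668 to 3641 in Control_2288, with a median of 1666. Model libraries ranged from 0.480 in Model_1340 to 55.5 in Model_1338, with a median of 21.5. AKK libraries ranged from 10.4 in AKK_1309 to 129 in AKK_1303, with a median of 52.3. Model lay wholly below Control, whereas AKK_1303 exceeded Control_2668. In Control and in AKK, the same library was highest and the same was lowest for both genes.

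**Figure D1:**
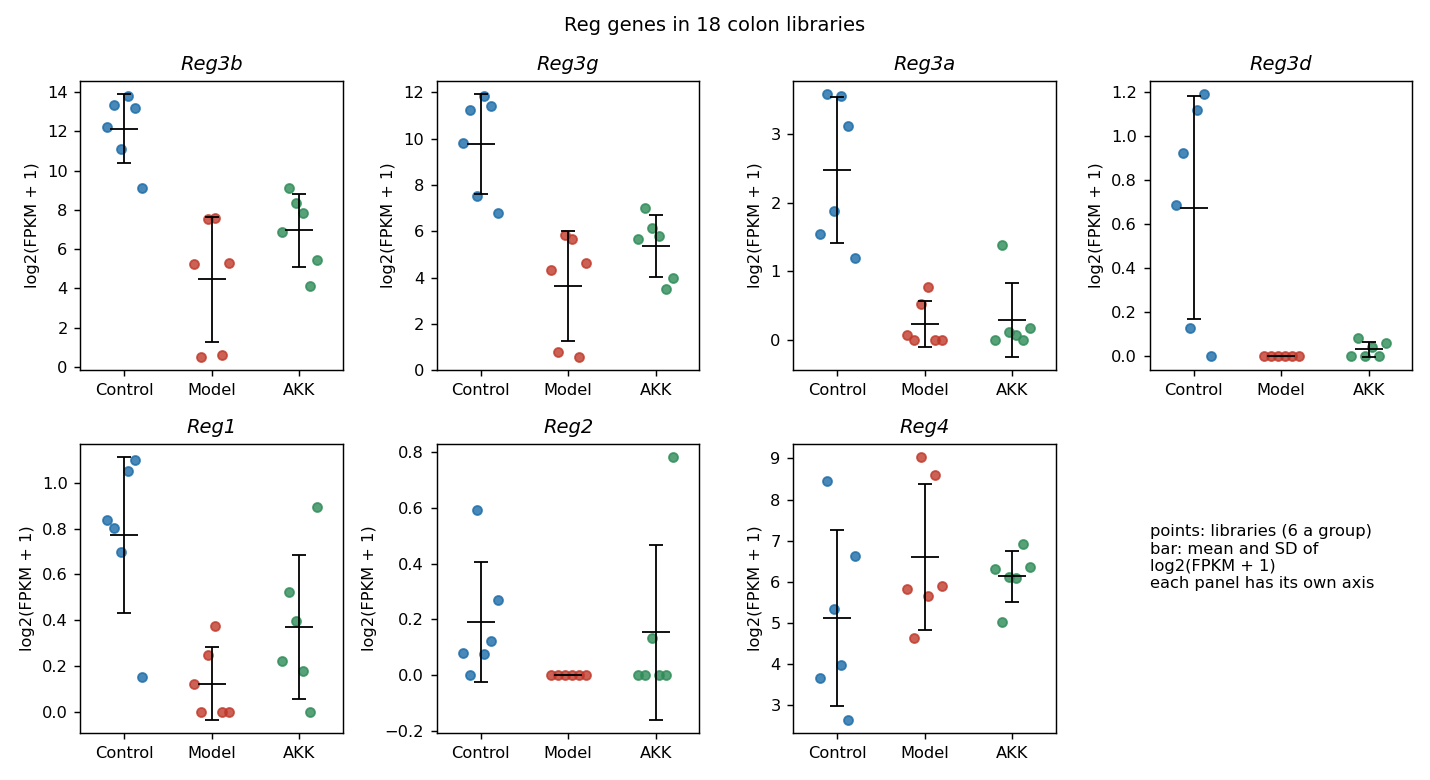
Level of each Reg gene as log2(FPKM + 1) in 18 colon libraries, by group. Points are libraries, 6 a group, with the mean and SD of the log values; each panel has its own axis. Reg3b and Reg3g are high in Control, with medians of 7041 and 1666 FPKM, while Reg4 spreads within every group.

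Fitted over all genes with edgeR, Reg3b differed between Model and Control by a log2 change of -6.58 ± 1.41 (SE), the lowest of 14007 genes tested. Reg3g followed as the 2nd lowest at -6.10 ± 1.23, and Reg3a was the 4th lowest at -4.90 ± 1.30. Between AKK and Control the changes were -5.12 ± 1.32 for Reg3b, -5.03 ± 1.17 for Reg3g and -4.32 ± 1.25 for Reg3a, which ranked 2nd, 4th and 6th from the lowest. These 2 comparisons share the Control libraries, and the members were picked for falls from Control, so the ranks support nothing. Over all genes tested, 1.37% lay wholly below Control in Model and 1.01% in AKK, and nothing is read from the members' places among them. Without Control_2286, Model_1337 and Model_1340, the Model change was -5.86 ± 1.21 for Reg3b and -5.39 ± 1.12 for Reg3g.

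Within the Model and AKK groups Reg3b spread widely, and its lowest libraries were those with the most Hoxb13. In Model, Reg3b was 0.421 FPKM in Model_1337, with Hoxb13 at 18.3 FPKM, and 0.551 in Model_1340, with Hoxb13 at 100.3. Model_1338 and Model_1339, at 185 and 189 FPKM of Reg3b, had Hoxb13 at 0 and 0.0418. Model_1316 and Model_1341 lay between, at 37.5 and 38.9 FPKM of Reg3b with Hoxb13 at 4.803 and 1.47. The highest and lowest libraries of the AKK group showed the same arrangement. AKK_1303, with Reg3b at 551 FPKM, had no Hoxb13 reads, and AKK_1309, with Reg3b at 16.8 FPKM, had Hoxb13 at 58.9. The other 4 AKK libraries, with Reg3b from 42.6 to 325 FPKM, had Hoxb13 from 1.27 to 4.51. In Control, Hoxb13 was 0 in 4 libraries, 0.0787 in Control_2289 and 4.88 in Control_2285, which still had Reg3b at 4735 FPKM. Control_2668, the lowest Control library for Reg3b, had no Hoxb13 reads. Summed over the 7 distal hindgut genes in the table, levels were 5.38 to 34.2 FPKM in Control, 11.3 to 135 in Model and 13.3 to 91.1 in AKK. Model_1340 and AKK_1309 had the highest sums of their groups. Genes of the list differed, however. Hoxd11 was highest of AKK in AKK_1303, at 1.15 FPKM, and of Control in Control_2668, at 1.38, both without Hoxb13 reads. In Model it was highest in Model_1337, at 2.62 FPKM. The part of this marker list in the Reg3 levels was not tested. In libraries at or near 0 for Hoxb13, Reg3b was 551 FPKM or more in 5 Control libraries, 185 and 189 in 2 Model libraries and 551 in AKK_1303. This grouping was made after the values were seen, rests on 2 Model and 1 AKK library, and was not tested. Hoxb13 near 0 does not show that libraries came from the same position.

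**Figure D2:**
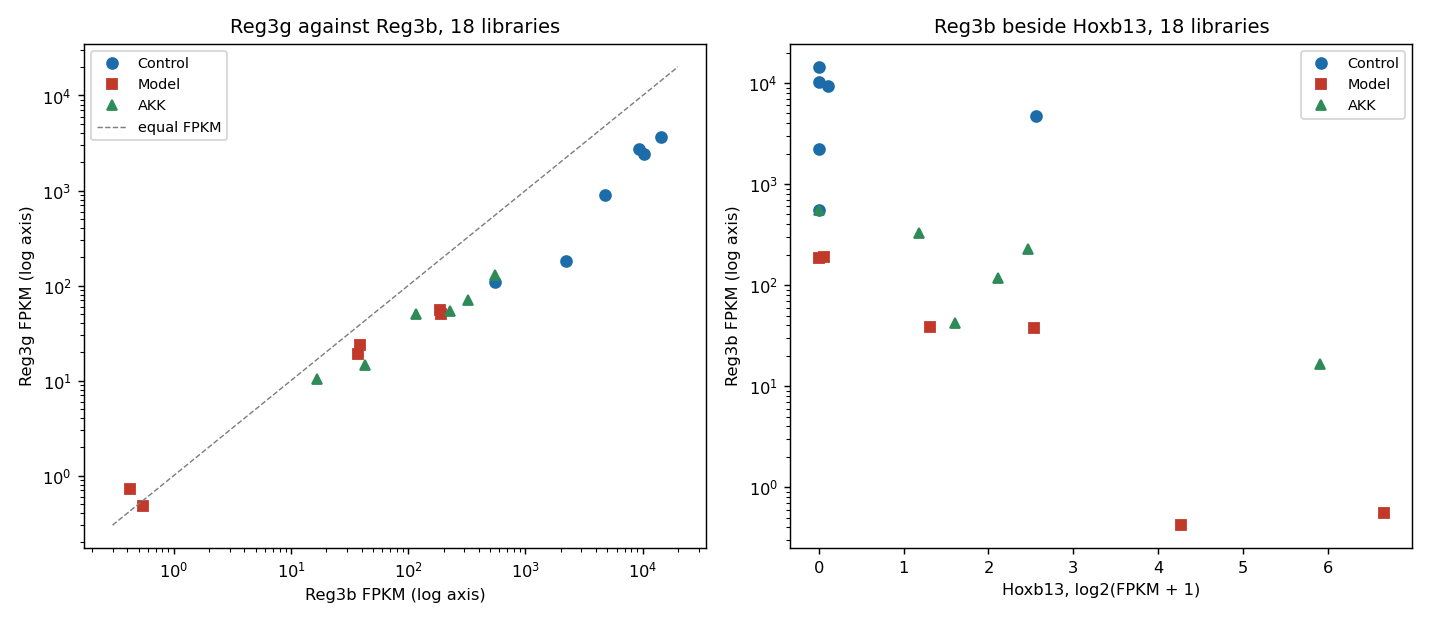
Left, Reg3g against Reg3b in FPKM on log axes, with a dashed line of equal FPKM. Right, Reg3b in FPKM on a log axis against Hoxb13 as log2(FPKM + 1). Each point is 1 of 18 libraries; on the right, Model_1337 and Model_1340, the lowest for Reg3b at 0.421 and 0.551 FPKM, lie toward high Hoxb13.

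Epithelial markers were present in all groups at differing levels. Pan-epithelial genes summed to 5296 to 7661 FPKM in Control, 1255 to 5427 in Model and 4339 to 5149.8 in AKK, so that AKK lay below Control. Vil1 was 156 to 278 FPKM in Control, 20.3 to 149 in Model and 124 to 148 in AKK, below Control in both. The edgeR fit called 0 of the 14 genes in any comparison, beside 20.1% of all genes for Model and 6.2% for AKK against Control. Colonocyte genes summed to 3305 to 12152, 327 to 10562.5 and 3121 to 8114 FPKM in the same order, again with 0 of 10 called. Smooth muscle genes summed to 727 to 2585 FPKM in Control, 1429 to 3945 in Model and 1486 to 2257 in AKK. Of 9 tested, edgeR called 4 higher in Model than in Control, beside 12.4% of all genes. Tagln, a smooth muscle actin-binding protein, was up by 1.20 ± 0.28 on the log2 scale (edgeR adjusted p of 0.00872). The part of these lists in the Reg3 levels was not tested. Model_1337 gave the lowest value of both epithelial lists. Model_1340, the other library with almost no Reg3b, had Epcam at 489 FPKM and a pan-epithelial sum of 4767. Its colonocyte sum was 2582 FPKM, the lowest of Model after Model_1337. Control_2286, with the Paneth cell genes, had Reg3b at 10333 FPKM, between the values of Control_2289 and Control_2288. Lyz1, a lysozyme of Paneth cells, was 463 FPKM there and at most 12.7 in the other libraries, and 3 to 5 of the 13 Paneth genes in the table had reads elsewhere. Between Model and Control, the log2 change of Fabp6, an ileal bile acid binding protein, went from -4.18 to -0.90 without Control_2286, and that of Reg3b from -6.58 to -6.44.

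**Figure D3:**
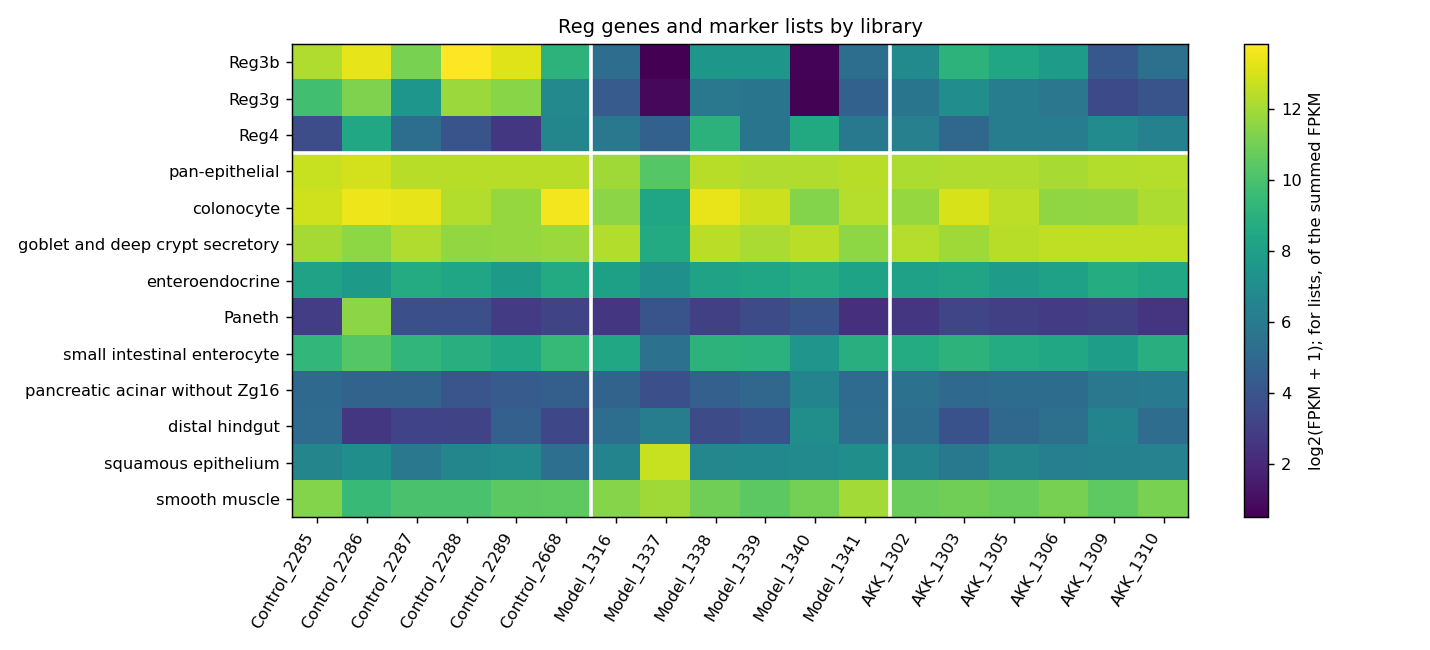
Log2(FPKM + 1) of Reg3b, Reg3g and Reg4 (top) and of the summed FPKM of 10 marker lists (below) in each library, with white lines between groups. Model_1337 stands out for squamous epithelium at 6715 FPKM, Control_2286 for Paneth genes at 2939 FPKM, and Model_1340 for the distal hindgut at 135 FPKM.

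AKK and Model, the contrast that was tested, did not differ detectably in any of the 4 Reg genes that passed the filter. Of these, Reg3a passed through its Control levels and was 0 in 3 Model and 2 AKK libraries, so its test decides little. Reg3b was higher in AKK by a log2 change of 1.46 ± 1.13, with a 95% interval of -0.92 to 3.83 and an edgeR quasi-likelihood adjusted p of 0.782. Reg3g was higher by 1.07 ± 0.999, with an interval of -1.03 to 3.17 and an edgeR adjusted p of 0.812. Of the 6 AKK libraries, 3 lay above all Model libraries for Reg3b and 2 for Reg3g, and 0 lay below all of them. Over all genes tested, 0.735% lay wholly above Model in AKK and 0.0643% wholly below it, and none of the 4 tested Reg genes did either. The intervals therefore hold both no difference and one of several-fold, and a p that misses the threshold does not show that the groups were alike. In this comparison edgeR called 3 of 14007 genes, or 0.0214%, and 0 of the 4 Reg genes tested. Without Control_2286, Model_1337 and Model_1340 the change was 0.87 ± 0.93 for Reg3b and 0.49 ± 0.87 for Reg3g, with edgeR adjusted p-values of 0.886 and 0.935. Without AKK_1309 it was 1.70 ± 1.14 for Reg3b and 1.29 ± 1.03 for Reg3g, and without AKK_1303 it was 0.89 and 0.60.

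**Figure D4:**
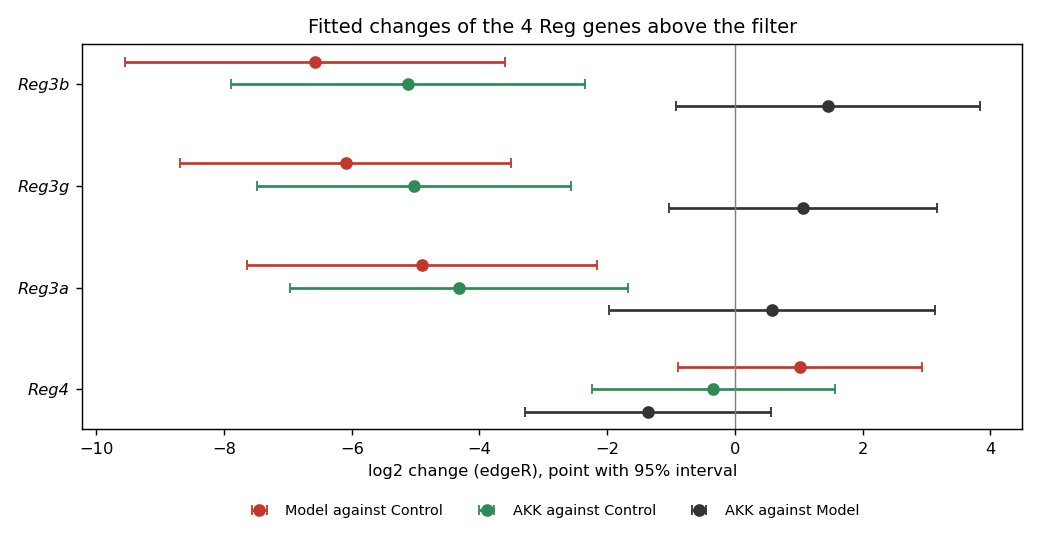
Log2 changes fitted with edgeR for the 4 Reg genes above the filter on low values, as points with 95% intervals, in 3 comparisons. The AKK against Model intervals of all 4 genes cross 0, such as -0.92 to 3.83 for Reg3b. Reg3a passed the filter through Control and was at or near 0 in most Model and AKK libraries. The comparisons with Control share its libraries.

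Reg3g was below Reg3b by FPKM in 17 of 18 libraries, by a proportion that varied. The ratio of Reg3g to Reg3b FPKM was 0.0821 to 0.296 in Control, with a median of 0.217. It was 0.266 to 1.73 in Model, with a median of 0.561, and 0.217 to 0.620 in AKK, with a median of 0.291. The ratio was highest in Model_1337, at 1.73 with 33 counts of Reg3b and 101 of Reg3g, and next highest in Model_1340, at 0.870 with 45 and 71 counts. Which of the 2 genes was higher depended on the scale in Model_1340, Model_1341 and AKK_1309 only. By deposited counts the ratio was above 1 in Model_1337, Model_1340, Model_1341 and AKK_1309, at 3.06, 1.58, 1.13 and 1.15. Its median by counts was 0.402 in Control, 1.04 in Model and 0.540 in AKK. The mean log2 ratio of FPKM was -0.84 in AKK relative to Model, with an exact two-sided permutation p of 0.104. Without Model_1339 the ratio difference was -1.07 with an exact permutation p of 0.0476, and over the other 11 libraries left out in turn the exact p was 0.0519 to 0.208. Across the 18 libraries, after the group means were removed, the log2 levels of Reg3g and Reg3b had a Pearson correlation of 0.96, and 0.94 in the 16 libraries without Model_1337 and Model_1340. All values of a library share its tissue piece and depth.

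The minor members of the cluster were low, and outside Control they were near the limit of detection. Reg3a had 1.29 to 11.01 FPKM in Control, with a median of 5.20 and the highest value in Control_2286. In Model it was 0 in 3 libraries and at most 0.706, in Model_1339. In AKK it was 0 in 2 libraries and at most 1.62, in AKK_1303. Reg3a thus reached 1 FPKM in 7 libraries, the 6 of Control and AKK_1303, and passed the filter through the group where it was high. AKK against Model gave Reg3a a log2 change of 0.58 ± 1.21 with an edgeR adjusted p of 0.929. That direction rested on AKK_1303, without which it was -1.86 with an edgeR adjusted p of 0.806. Without the same library the change from Control was -6.76 in place of -4.32.

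Reg3d, Reg1 and Reg2 stayed under the filter of 1 FPKM in 6 libraries and were not in the edgeR fit. Reg3d, a further Reg3 lectin of the mouse, was 0 in Control_2668 and up to 1.29 FPKM in the other Control libraries, highest in Control_2289. It had no reads in any Model library and at most 0.0577 FPKM in AKK, in AKK_1303, which is 4 counts. A count of 0 allows up to 3 fragments, or about 12 counts in these files, so the AKK values were within what 0 allows. Reg1 was 0.112 to 1.14 FPKM in Control, 0 to 0.295 in Model and 0 to 0.861 in AKK. Control and AKK overlapped for Reg1, and 4 of 6 Model libraries lay below all Control libraries. Reg2 was 0 to 0.507 FPKM in Control and 0 in all Model libraries. In AKK, Reg2 was 0 in 4 libraries, 0.0954 in AKK_1305 and 0.722 in AKK_1310. AKK_1310 also had the most Reg1 of its group, 68 counts beside 59 of Reg2, and it is the library with reads for 20 of 21 acinar genes. Cpa1 and Pnlip, a carboxypeptidase and a lipase of acinar cells, were 1.37 and 1.19 FPKM there, at most 0.0586 and 0.0186 in the other AKK libraries and 0 in Control. Without Zg16, a gene that colon goblet cells also express, the acinar list summed to 15.2 to 32.2 FPKM in Control, 12.4 to 88.8 in Model and 32.5 to 61.9 in AKK. Its highest value was in Model_1340, which had no Reg2 reads, and AKK_1310 was the highest of AKK. The part of these genes in the Reg1 and Reg2 values was not tested. Exact two-sided permutation tests of AKK against Model, not adjusted, gave p = 0.113 for Reg1, 0.182 for Reg3d and 0.455 for Reg2. The smallest p that 6 against 6 can give, 0.00216, does not apply to Reg3d and Reg2. These were 0 in all Model libraries and in 3 and 4 AKK libraries. With so many values tied at 0, their tests could not give a lower p, so they decide nothing about these 2 genes. Without AKK_1310 the exact permutation p was 0.225 for Reg1, 0.364 for Reg3d and 0.909 for Reg2, with the same limit for Reg3d and Reg2.

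Reg4, the member on chromosome 3, varied widely within Control and Model, and its groups overlapped. Control libraries ranged from 5.27 FPKM in Control_2289 to 346 in Control_2286, with a median of 27.0. Model libraries ranged from 23.9 in Model_1337 to 524 in Model_1338, with a median of 57.6, and Model_1340 stood at 383. AKK libraries ranged from 31.6 in AKK_1303 to 120 in AKK_1309, with a median of 72.9. Control_2289 and Control_2288, among the highest libraries for Reg3b, had Reg4 at 5.27 and 14.7 FPKM. Model_1340, with Reg3b at 0.551 FPKM, had Reg4 at 383. Other libraries went the other way. Control_2286, with Reg3b at 10333 FPKM, had the highest Reg4 of Control, and Model_1337 was the lowest of Model for both genes.

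The fitted log2 change of Reg4 was 1.02 ± 0.91 between Model and Control and -0.34 ± 0.90 between AKK and Control. Without Control_2286, the library with Paneth cell genes, they were 2.40 ± 0.85 and 1.04 ± 0.81, so that the AKK change turned direction. Without Model_1338 the Model change was 0.35 ± 0.91. Between AKK and Model the change was -1.36 ± 0.92, with a 95% interval of -3.29 to 0.57 and an edgeR adjusted p of 0.759. That change was -0.69 without Model_1338. Goblet and deep crypt secretory genes, a list that covers the cells known to make Reg4, summed to 3023 to 4868 FPKM in Control, 402 to 5630.1 in Model and 3828 to 6044 in AKK, and edgeR called 0 of the 12 in any comparison. The correlation of Reg4 with Reg3b across 18 libraries after removal of group means was -0.12.

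As a share of the whole transcript pool, the family went from a major to a minor component. The 7 genes held 0.208% to 5.01% of summed FPKM in Control, with a mean of 2.43% ± 1.897 (SD, n = 6). Model libraries held 0.00701% to 0.200%, with a mean of 0.0737% ± 0.0705, and AKK libraries 0.0397% to 0.196%, with a mean of 0.0952% ± 0.0603. The groups did not overlap with Control. By deposited counts the shares were 0.106% to 2.69% in Control, 0.00293% to 0.0946% in Model and 0.0179% to 0.104% in AKK. The AKK and Control ranges were thus separated by a narrow margin on both scales. By FPKM the Model range came as near, with Model_1338 at 0.200% beside Control_2668 at 0.208%. Reg4 gave 68.5% of the Reg FPKM of Model_1338. Within the family, Reg3b gave more than 50% of the FPKM in 6 Control, 1 Model and 3 AKK libraries. Reg4 gave more than 50% in 0 Control, 3 Model and 2 AKK libraries, up to 99.7% in Model_1340.

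**Figure D5:**
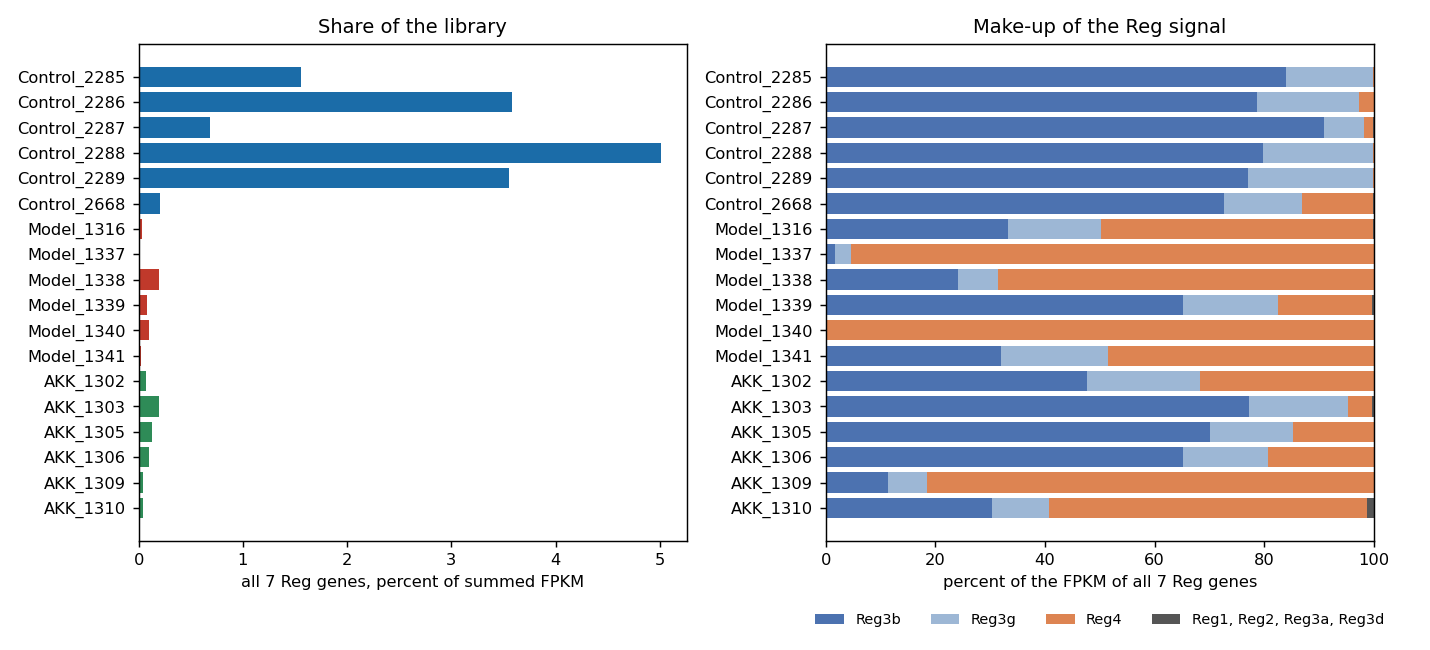
Left, percent of each library's summed FPKM held by the 7 Reg genes. Right, how that Reg signal divides among Reg3b, Reg3g, Reg4 and the other 4 genes. Control libraries reach 5.01% and are mostly Reg3b, while in Model_1340 Reg4 makes up 99.7%.

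Genes of the pathways known to switch on Reg3 transcription, and other epithelial genes that answer to the same signals, were read from 4 lists of 91 genes, of which 80 were tested. Between Model and Control edgeR called 7 higher and 5 lower, or 15% of those tested beside 20.1% of all genes (12.4% higher and 7.67% lower), and the median log2 change was 0.10 against 0.00 over all genes. Between AKK and Control it called 2 higher and 1 lower, 3.75% beside 6.2% of all genes (3.72% higher and 2.48% lower). Between AKK and Model it called 0, beside 0.0214%. The Model count was 6 without Control_2286 and 7 without Control_2288. It was 21 without Model_1341, or 26.25% beside 3408 of 14007 genes. The AKK count was 17 without Model_1337, or 21.25% beside 2132 of 14007 genes, so there the share of the lists was the higher. It was 7 without Control_2668 and 5 without Control_2287 or Model_1341.

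By list, edgeR called 4 of 13 cytokine and receptor genes higher in Model than in Control, 0 of 14 JAK-STAT3 genes, and 3 of 25 microbial sensing genes lower, and the rest were targets. Over all genes tested, 12.4% were called higher and 7.67% lower in this comparison. Il22, the cytokine that acts upstream of STAT3, was low in all libraries. In Control it was 0 in Control_2668, 0.103 FPKM in Control_2287, 0.106 in Control_2285, 0.813 in Control_2288, 1.66 in Control_2286 and 4.67 in Control_2289. It was 0 in 4 Model libraries and at most 0.104, in Model_1340. In AKK it was 0 in 2 libraries and at most 0.471, in AKK_1310. The 3 Control libraries with the most Il22 were the 3 with the most Reg3b, though in another order, and Control_2668 was the lowest for both. Outside Control this match was absent. AKK_1310 and Model_1340, the highest of their groups for Il22, had Reg3b at only 42.6 and 0.551 FPKM. Whether Il22 and Reg3b vary together was not tested. On log2(FPKM + 1), Il22 differed by -0.80 between Model and Control and -0.70 between AKK and Control. Exact two-sided permutation tests gave p = 0.0303 and 0.0887, which became 0.0909 and 0.133 after adjustment over 3 comparisons. AKK against Model gave 0.10 with an exact permutation p of 0.359. Genes of innate lymphoid and T17 lymphocytes, the cells known to make IL-22, summed to 20.1 to 34.9 FPKM in Control, 22.8 to 96.5 in Model and 32.9 to 37.0 in AKK. Of 6 tested, edgeR called 3 higher in Model than in Control, among them Il7r by 1.61 and Ahr by 0.98, with edgeR adjusted p-values of 0.0243 and 0.0284. Both calls were lost without Control_2286 or Control_2288, and that of Il7r also without Model_1337.

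Of the receptors, Il22ra1, the IL-22 receptor chain of epithelial cells, was not called in any comparison and stood at 3.96 ± 0.84 FPKM (SD, n = 6) in Control. Its mean was 5.04 ± 1.44 FPKM in the Model group and 5.54 ± 1.44 in the AKK group. Il6st, the gp130 chain shared by IL-6 family receptors, rose in Model by 1.06 ± 0.29 on the log2 scale with an edgeR adjusted p of 0.0184, and ranged from 10.5 to 50.4 FPKM there against 7.16 to 13.8 in Control. The highest value was in Model_1337, without which the rise was 0.61 ± 0.17, still called. Il11ra1, the IL-11 receptor chain, rose in Model by 0.79 ± 0.12 and in AKK by 0.59 ± 0.12, with edgeR adjusted p-values of 0.00094 and 0.00971, and both calls held without any 1 library. Osmr and Lifr, receptor chains for oncostatin M and LIF, were called higher in Model by 1.36 and 0.82, but the calls were lost in 7 and 5 of 18 fits that left out 1 library.

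Few signal transducers were called. Stat3, the transcription factor downstream of the IL-22 receptor, was not called, with means of 15.4 ± 3.59 FPKM (SD, n = 6) in Control, 18.8 ± 8.37 for Model and 16.5 ± 1.73 for AKK. Socs3, a feedback inhibitor that STAT3 induces, had a median FPKM of 28.8 for Control, 12.8 for Model and 17.8 for AKK. Its log2 changes from Control were -1.18 ± 0.52 in Model and -1.16 ± 0.52 in AKK, with edgeR adjusted p-values of 0.114 and 0.173. The highest Socs3, 99.2 FPKM, was in Control_2289, which also had the most Il22. Myd88, the adaptor of Toll-like receptors, had log2 changes of -0.08 in Model and -0.32 in AKK and was not called. In the list of microbial sensing genes, Ripk2, a kinase downstream of NOD receptors, fell in Model by 0.91 with an edgeR adjusted p of 0.0144, and Chuk, which encodes a kinase that activates NF-kappaB, fell by 0.35 with 0.0197. Tlr1, which encodes a receptor for bacterial lipopeptides, fell by 0.49 with an edgeR adjusted p of 0.0462, a call lost in 13 of 18 fits without 1 library. Extl3 was not called, with means of 7.58 ± 0.92 FPKM in Control, 9.35 ± 2.01 for Model and 9.40 ± 0.72 for AKK (SD, n = 6 each).

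Other epithelial genes known to respond to IL-22 or microbes were called in both directions. Of 28 tested, edgeR called 3 higher and 2 lower in Model than in Control, shares near the 12.4% and 7.67% of all genes, and the median log2 change was -0.06. Slpi, an antibacterial protease inhibitor, rose by 4.41 ± 0.73 in Model and 3.33 ± 0.69 in AKK, with edgeR adjusted p-values of 0.00187 and 0.0135. Its levels were 1.61 to 7.06 FPKM in Control, 11.6 to 179 in Model and 14.5 to 70.9 in AKK, with no overlap between Control and either group, as for 1.53% of tested genes wholly higher in Model and 7.61% wholly higher in AKK. Lbp, which binds bacterial lipopolysaccharide, rose by 1.78 ± 0.46 in Model with an edgeR adjusted p of 0.0147, and by 0.93 ± 0.26 without Model_1337, still called. Fut2, which adds fucose to epithelial glycans, fell in Model by 1.35 with an edgeR adjusted p of 0.0262, a call lost in 3 of 18 fits without 1 library. Dmbt1, a secreted bacteria-binding glycoprotein, fell by 1.13 with 0.0252, lost in 1 of 18 such fits. S100a9, a calprotectin subunit, was called higher by 4.01 in Model, a call lost in 13 of 18 such fits.

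The following antimicrobial or epithelial defence genes of the list were picked after their values were seen. Retnlb, a bactericidal goblet cell protein, had a log2 change of -0.62 ± 1.05 between Model and Control and 0.91 ± 1.06 between AKK and Model. Ang4, an antimicrobial ribonuclease, had -1.08 ± 0.93 and 0.09 ± 0.92 in the same comparisons, and Saa1, a serum amyloid A gene, -0.98 ± 0.62 and -0.12 ± 0.62. Lcn2, which binds bacterial siderophores, had 1.37 ± 0.70 and 0.07 ± 0.69. Pigr, the receptor that carries IgA to the lumen, had -0.32 ± 0.30 and 0.58 ± 0.30. The edgeR adjusted p-values of these 5 genes ran from 0.170 to 0.709 and from 0.738 to 0.987, so none was called.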

How the data were processed

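Colon RNA of 18 libraries was analysed from 1 table of 36451 genes. The submitters' processing notes list HISAT2 2.2.1, StringTie 2.1.6, cutadapt 1.9 and the mm10 build, and also DESeq2 and edgeR without a role. Per the file headers, the authors deposited an FPKM and a count for each gene and library. The deposited counts are whole numbers, but the values 4, 8 and 12 occurred 2.36, 1.74 and 1.36 times as often as those next to them, so 1 fragment seemed to give about 4 counts, and dividing by 4 was an alternative. Per the labels' protocols, libraries were poly(A)-selected and strand-marked.

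Testing covered the 14007 genes that reached 1 FPKM in 6 or more libraries, among them 4 Reg genes. Counts were scaled by TMM and tested with the edgeR quasi-likelihood test in 1 fit over all groups. Calls were made at an adjusted p (Benjamini-Hochberg over all genes tested) under 0.05. Levels under the filter were compared by exact permutation tests of log2(FPKM + 1). The fit was tested on simulated data. No libraries were identical (lowest chi-square per degree of freedom 47.4). Intervals cover the spread between libraries, and the limit at 0 covers counting error only.

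The members, lists and tests were chosen with earlier results of these data known. The 16 lists cover Reg3 induction and cell types. Genes named are all members, Il22, Il22ra1, Stat3, Socs3, Myd88, Extl3, for each list up to 2 called genes with the largest change or the 1 with the smallest p, and the 4 genes most like Reg3b and Reg4. Some genes the rule names are left out of the text, and further called genes of the induction lists were named after their values were seen. Tools were R 4.3.3, edgeR 4.0.16, limma 3.58.1, DESeq2 1.42.0, Python 3.11.15, numpy 2.4.6, pandas 2.3.3, scipy 1.17.1, matplotlib 3.10.9 and Biopython 1.88.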

Additional observations from a re-analysis of the deposited data

Results flagged for a closer look

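Of 60 groups of 6 values examined for a single library far from the others, 9 met that criterion, while chance alone marks about 1 group in 20. AKK_1303 had Reg3a at 1.62 FPKM, far above the other 5 AKK libraries. AKK_1310 had Reg2 at 0.722 FPKM, far above the rest of its group. Control_2287 had a ratio of Reg3g to Reg3b of 0.0821, far below the other Control libraries. Among the summed marker levels, Model_1337 was far below its group for pan-epithelial genes, at 1255 FPKM, and for goblet and deep crypt secretory genes, at 402 FPKM. The same library was far above its group for squamous epithelial genes, at 6715 FPKM. AKK_1303 had the lowest goblet and deep crypt secretory genes of AKK, at 3828 FPKM. Control_2286 stood far above the other Control libraries for Paneth genes, at 2939 FPKM. Control_2288 was far below them for pancreatic acinar genes, at 443 FPKM, a sum made up mostly of Zg16, which goblet cells also express. The acinar genes without Zg16 summed to 15.2 to 32.2 FPKM in Control.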

How the results depend on the processing

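Over all alternatives, Reg3b and Reg3g kept their direction in each comparison: Reg3b by -8.12 to -5.86 for Model against Control, -5.69 to -4.50 for AKK against Control and 0.87 to 2.93 for AKK against Model, and Reg3g by -6.56 to -4.96, -5.50 to -4.36 and 0.49 to 2.104. With each library left out in turn, the ranges were -7.09 to -6.24, -5.69 to -4.78 and 0.89 to 1.95 for Reg3b, and -6.50 to -5.72, -5.50 to -4.65 and 0.60 to 1.45 for Reg3g. Reg3a ranged from -5.85 to -4.63 (Model against Control), -6.76 to -4.05 (AKK against Control) and -1.86 to 1.53 (AKK against Model). Reg4 ranged from 0.35 to 2.40, -0.59 to 1.04 and -1.59 to -0.69. No Reg gene was called in AKK against Model under any of these settings, with adjusted p-values from 0.586 to 0.9997. The Reg3g to Reg3b ratio ranged from -1.07 to -0.53 with 1 library left out.

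Limma on log2(FPKM + 1), which understates changes of low genes, gave Reg3a -2.25 in Model and -2.19 in AKK against Control. Voom with library weights gave Reg3a -6.08 in AKK against Control and -1.67 in AKK against Model, a reversal. Without Control_2286, Model_1337 and Model_1340, Reg3a was -4.06 in Model, and without the 4 libraries above 70000000 counts it was -3.46 in AKK against Control. Reg4 in AKK against Control reversed to 1.02 and 1.08 with limma (pseudocounts 1 and 0.1), 1.15 with voom and 1.04 without those 3 libraries. Causes other than those named were not tested.

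Genes called for Model against Control (2811) were 1843 with limma at pseudocount 1, 939 with both groups alone, 1512 with voom, 685 without the 3 libraries, and 1743 (without Control_2286) to 3408 (without Model_1341) with 1 library left out. For AKK against Model (3, and 941 at an unadjusted p under 0.05) they were 12 with DESeq2, 12 with voom, 0 without the 4 libraries and 2 to 4 with 1 left out. For AKK against Control (869) they were 1841 with DESeq2, 378 with no filter, 2722 alone, 3248 with voom, 1559 without the 3, 56 without the 4 and 288 (without Control_2286) to 2132 (without Model_1337) with 1 left out. Induction genes called for Model against Control (12) were 6 and 7 with limma, 2 alone, 6 with voom, 4 without the 3 libraries and 6 to 21 with 1 left out. For AKK against Control (3) they were 12 with DESeq2, 21 alone, 24 with voom, 11 without the 3, 0 without the 4 and 2 to 17 with 1 left out, and for AKK against Model they stayed 0. The counts alone and with voom were 26.25% and 30% of the 80 tested, above the shares of all genes under those settings. In the main fit the 3 genes were 3.75%, below the 6.2% of all genes. The settings without 3 or 4 libraries, the acinar list without Zg16 and the exact tests of low genes, with and without AKK_1310, were chosen after seeing the data. No paired analysis was possible because the groups share no replicate numbers. Depth limits Reg1, Reg2 and Reg3d, which have few or 0 counts.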

Other observations

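The genes whose levels most resembled that of Reg3b across the 18 libraries, after removal of each group's mean of log2(FPKM + 1), were Stmn1, Slc25a1, Sptssb and Hmgb3. Stmn1, which encodes a microtubule-destabilizing protein, had a Pearson correlation of 0.89, as did Slc25a1, the mitochondrial citrate carrier, and Sptssb, a subunit of the enzyme that starts sphingolipid synthesis. Hmgb3, a chromatin protein, had 0.88. Reg3g, itself a member, had 0.96. Without Model_1337 and Model_1340, the libraries farthest from the median of Reg3b, the 4 values were 0.89, 0.82, 0.80 and 0.85. By Spearman correlation 3 of the 4 genes stayed among the top 4, and Mgst1 took the place of Slc25a1.

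For Reg4 the most similar genes were Gatb, which acts in mitochondrial translation, at 0.84, Clptm1 at 0.83, Ciao1, of cytosolic iron-sulfur assembly, at 0.83 and Cd82, a tetraspanin, at 0.82. Without Control_2286 and Model_1338 these were 0.73, 0.88, 0.76 and 0.71. None of the genes listed for Reg3b was listed for Reg4. These values are descriptions over 18 libraries that share depth and tissue composition within each library, and the genes were picked as the highest of 14007.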
